A study of Mus musculus with 18 samples.

Results

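The 2 vehicle controls of an organoid experiment were compared with each other: organoids that received HCl, the vehicle of norepinephrine, against organoids that received DMSO, the vehicle of the α2-adrenergic agonist UK14304. The members were chosen by the treatment label, and by the replicate number m1 to m4 in the title, which gives 4 HCl and 4 DMSO samples in 4 pairs of the same number, 8 of the 18 samples in all. All 8 were small intestinal organoids of wild-type female C57BL/6 mice, past 4 passages and kept for 4 days with the vehicle only. No sample without any vehicle was among them, so each difference below is that between the vehicles and not the effect of either one. The labels do not say what m stands for, so that the 4 numbers are called replicate numbers here. The other 10 samples received 1 μM norepinephrine or 1 μM UK14304, and the 8 of these with the numbers m1 to m4 served as a set of libraries in which differences between the numbers could be measured again. The question was how far the vehicles differed, and which genes varied between cultures that received no agonist.

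Organoids are grown from crypts, the pockets at the base of the intestinal lining that hold the stem cells. In culture they form a closed epithelium of stem cells, dividing progenitors and the differentiated lineages: absorptive enterocytes, mucus-secreting goblet cells, hormone-releasing enteroendocrine cells, tuft cells and Paneth cells, which release antimicrobial proteins. The small intestine also differs along its length. The duodenum, its first stretch, is known for iron uptake and for the transcription factor Pdx1, whereas the ileum, its last stretch, takes up bile acids, and crypts are known to keep much of this regional programme in culture. DMSO is an organic sulfoxide used to dissolve compounds in culture, and HCl is a mineral acid that keeps norepinephrine from oxidizing.

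The labelled cell type was checked against its markers. All 9 epithelial genes with a symbol in the table were measured, and their summed level was 7843 to 8612 CPM (the counts of a gene scaled to a fixed library size with edgeR's TMM factors), whereas 10 immune cell genes summed to 5.63 to 8.22 CPM, 10 genes of fibroblasts and smooth muscle to 10.1 to 11.7 CPM and 10 genes of endothelium, nerve and glia to 3.4 to 4.54 CPM. None of these 4 lists held a gene that passed for HCl against DMSO. Total counts were 22153675 to 25101053 per HCl library and 24274158 to 26268471 per DMSO library, a difference that was not past the threshold (two-sided exact permutation test, p = 0.0571, where 0.0286 is the smallest p that 4 against 4 allows). Genes with at least 1 count numbered 22651 to 23099 with HCl and 23018 to 23796 with DMSO (exact permutation test, p = 0.0571). The libraries also varied in how much of the count fell on the ribosomal RNA gene CT010467.1, a transcript that poly(A) selection is meant to remove: this share was 0.414%, 0.346%, 0.377% and 2.02% in HCl m1 to m4, and 2.41%, 2.61%, 3.06% and 0.351% in DMSO m1 to m4. The higher share was thus found in 1 HCl and 3 DMSO libraries, and in the m4 pair the order of the vehicles was the opposite of that in the other 3 pairs (exact permutation test, p = 0.114). DMSO m3 stood apart in its slope of expression on GC content, which was -0.104 in log2 units per 10 percentage points against -0.0154 to 0.063 in the other 7 libraries, and in the nuclear RNA Malat1 with 678 CPM against 333 to 457 CPM. The mean GC slope did not differ between the vehicles (exact permutation test, p = 0.943). All 37 mitochondrial genes were listed at 0 in every library, so that a mitochondrial share could not be given.

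No gene passed the test between the vehicles. Of 15247 genes tested, 0 (0%) passed an adjusted p of 0.05 in edgeR's quasi-likelihood test with Benjamini-Hochberg adjustment, where 194 genes (1.27%) had an unadjusted p under 0.05, 74 with the higher level in HCl and 120 with the higher level in DMSO. A block for the replicate number in the fit of all 18 samples removes what the samples of one number share. With this block, 0 genes (0%) passed again and 277 had an unadjusted p under 0.05. DESeq2 called 0 genes with and without the block, and 136 and 140 genes had an unadjusted p under 0.05. These counts do not show that the vehicles act alike, and the intervals of the fold changes give what differences the samples leave room for. Among the 9281 genes with a mean of at least 10 CPM in the vehicle samples, the median absolute log2 fold change was 0.0253 and the 95th percentile was 0.0906. In the fit without the block, the 95% confidence interval of the fold change lay within 0.5 on the log2 scale in either direction for 9088 of these genes (97.9%). It lay within 1 for 9230 (99.5%). With the block, these counts were 9249 (99.7%) and 9261 (99.8%). Over all 15247 genes the interval lay within 1 for 90.9% without and 92.5% with the block, so that larger differences could have been missed mostly in genes of few counts.

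**Figure D1:**
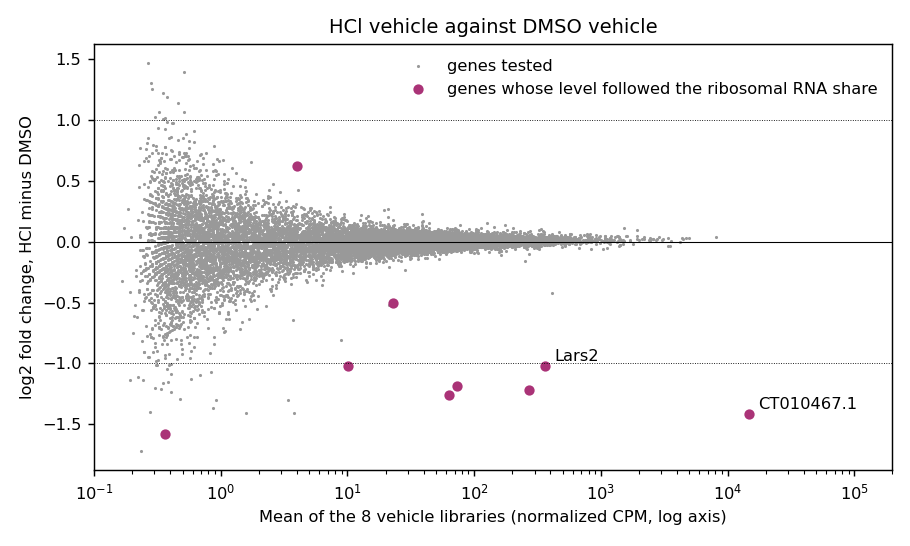
Log2 fold change of HCl minus DMSO (y axis) against the mean normalized CPM of the 8 vehicle libraries (x axis, log scale), 1 point for each of the 15247 genes tested, with dotted lines at 1 and -1. The points narrow to a band near 0 as the level rises, and the purple points, 9 genes whose level followed the ribosomal RNA share, make up most of the exceptions above 10 CPM.

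Of the 9281 genes, 8 had an absolute log2 fold change over 0.5, and all 8 were lower in HCl, none of them past the test. The ribosomal RNA gene CT010467.1 (chromosome 17, 39846353 to 39848201, plus strand, GRCm38) had 4161, 3506, 3668 and 20620 CPM in HCl m1 to m4 and 24450, 26970, 30410 and 3505 CPM in DMSO m1 to m4. Its log2 fold change was -1.42 with a standard error (SE) of 0.88, and the groups overlapped because the m4 pair ran the other way. Lars2, the mitochondrial leucyl-tRNA synthetase, had 183.8, 177.9, 163.8 and 437 CPM with HCl and 497.9, 730, 556.9 and 169.9 CPM with DMSO. It showed the same 4 high and 4 low libraries, and its log2 fold change was -1.02 (SE 0.492). Gm23935, Mir6236, Gm15564, Gm37194 and Rn7sk, the RNA of the 7SK particle that holds back transcription elongation, repeated this order of libraries with log2 fold changes of -1.26, -1.22, -1.19, -1.02 and -0.51. Without HCl m4 the value of CT010467.1 was -2.5, and without HCl m4 that of Lars2 was -1.48.

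In a fit of the 8 vehicle libraries with the replicate number and the ribosomal RNA share, 9 of 14546 genes followed the share at an adjusted p under 0.05 (edgeR). These were CT010467.1, which sets the share, the 6 genes just named with Lars2 among them, and 2 others. Hist1h1b, a linker histone whose transcript carries no poly(A) tail, was close to the detection limit, with 0.0435 to 0.488 CPM in HCl and 0.0411 to 0.926 CPM in DMSO, and had a slope of 1.19 log2 units per doubling of the share. The pseudogene Gm28438 had the opposite slope, -0.48, with 2.44 to 7.13 CPM in HCl and 1.95 to 6 CPM in DMSO. The vehicle and the ribosomal RNA share could be set apart only through the m4 pair. The remaining gene past 0.5, Clu, was not among the 9. Clu encodes clusterin, a secreted chaperone that marks damage-responsive epithelial cells, and it had 21.6, 21.4, 17.8 and 8.98 CPM in HCl m1 to m4 and 46.8, 26.4, 16.9 and 10 CPM in DMSO m1 to m4. Its difference was widest in the m1 pair. Without the replicate block, the log2 fold change was -0.52 (SE 0.458) with DMSO m1 and -0.03 without it, where HCl m1 was kept. With the block and all libraries it was -0.44 (SE 0.191).

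Some genes ran the same way in all 4 pairs. HCl was the higher sample in every pair for 800 genes (5.25% of those tested) and the lower one in every pair for 728 genes (4.77%). Each direction is 1 of the 16 sign patterns that 4 pairs allow, and neither share exceeds that of random signs. The values of the 2 groups did not overlap for 169 genes (1.11%). The 10 genes in each direction with the lowest p in the blocked fit, among those of at least 1 CPM with the same direction in 4 pairs, are given as a description, since they were picked from the contrast itself and none passed. Map10, a microtubule-associated protein gene, had no overlap between the groups, with 1.87, 2.15, 2.43 and 1.99 CPM with HCl against 1.35, 1.3, 1.23 and 1.48 CPM with DMSO. Ppcdc, an enzyme of coenzyme A synthesis, had 20.8, 22.1, 24.7 and 22.7 CPM with HCl and 19.1, 21.2, 19.6 and 18.6 CPM with DMSO. Insig2, which holds back cholesterol synthesis in the endoplasmic reticulum, had 39.4, 44.1, 38.3 and 40.4 CPM with HCl against 37.9, 38.4, 34.6 and 36.7 CPM with DMSO, a log2 difference of 0.14. Fmo2, a flavin-containing monooxygenase, a family known to oxidize sulfur compounds, stood at 1.39 to 2.42 CPM with HCl and 1.08 to 1.55 CPM with DMSO. The other 6 were Gm28875, Slc34a2, a phosphate transporter, 1700108F19Rik, Cdsn, Bst1 and Gramd1c, with log2 fold changes of 0.14 to 0.67. Without HCl m3 the value of Slc34a2 was -0.02 in place of 0.14, and without DMSO m2 that of Bst1 was 0.14 in place of 0.27. These fits had no replicate block and kept the partner of the library left out. With the block and all libraries the values were 0.13 (SE 0.0408) and 0.28 (SE 0.0965).

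On the other side, Sbsn had 2.09, 2.29, 2.04 and 2.36 CPM with HCl and 2.94, 3.12, 2.58 and 3.25 CPM with DMSO, with no overlap between the groups. Msln, the surface glycoprotein mesothelin, had 8.3, 7.68, 7.35 and 2.8 CPM with HCl and 20.1, 14.4, 7.87 and 3.08 CPM with DMSO, so that most of its log2 fold change of -0.8 (SE 0.512) came from m1 and m2. Without DMSO m1 and without the replicate block it was -0.37, and with the block and all libraries it was -0.72 (SE 0.203). Kcnq1ot1, a nuclear RNA antisense to Kcnq1, had 0.596, 1.05, 0.826 and 0.975 CPM with HCl and 1.12, 2.19, 4.78 and 1.03 CPM with DMSO. Its log2 fold change of -1.4 was -0.74 without DMSO m3, the library that was also high in Malat1. Reg3b, an antimicrobial lectin, had 316.4, 178, 224.3 and 226.4 CPM with HCl and 347.9, 215.6, 259.2 and 233 CPM with DMSO, and here the differences between the numbers were wider than those between the vehicles. Without DMSO m1 and without the replicate block, its log2 fold change was 0 to 2 decimals in place of -0.16. That fit kept HCl m1, the highest HCl library, without its partner. With the block and all libraries the value was -0.16 (SE 0.0496). Gm10433, Sh3kbp1, Gm7420, Krt80, Hipk4 and Mtus2, all under 8 CPM, made up the 10, with log2 fold changes of -0.33 to -0.72. That of Mtus2 was -0.15 without DMSO m2 in place of -0.33, in a fit without the replicate block that kept HCl m2. With the block and all libraries it was -0.34 (SE 0.114). The counting used no strand, and exons of Bst1, Sbsn, Kcnq1ot1 and Krt80 overlap those of another gene, so that reads from the shared stretches were not counted for either gene.

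The genes by which the study followed the organoids were close in the 2 vehicles. Olfm4, the stem cell marker olfactomedin 4, had 3658, 2762, 3839 and 3210 CPM with HCl and 3306, 2467, 4539 and 3518 CPM with DMSO, a log2 fold change of -0.04 (SE 0.184). With the replicate block this was -0.02 (SE 0.078). Lyz1, Paneth cell lysozyme, had 1822, 1133, 1637 and 1315 CPM against 1623, 1078, 1775 and 1519 CPM, with a log2 fold change of -0.02. In both genes m2 was the lowest number with either vehicle. Mki67, the proliferation marker, had 708, 742, 857.7 and 764.4 CPM with HCl and 766.4, 733.6, 776.8 and 778.2 CPM with DMSO, with a log2 fold change of 0.01 (SE 0.0587). Adra2a, the α2A receptor that both agonists stimulate, had 30.2, 26.8, 29.8 and 29.9 CPM with HCl and 29.6, 25.5, 27.2 and 31 CPM with DMSO, with a log2 fold change of 0.04 (SE 0.0733). Muc2, Tff3, Bmi1, Slc12a2 and Top2a had log2 fold changes between -0.06 and 0. In bulk RNA, fewer cells of a type and less RNA per cell cannot be told apart.

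Gene lists that bear on the vehicles themselves showed no member past the test. Of 22 genes of acid-base transport and acid sensing 17 were measured, with log2 fold changes of -0.1 to 0.08 and a median of 0.01, against a median of 0.00188 over all genes. The sodium-proton exchangers had the highest of these, with 0.08 for Slc9a3 and 0.06 for Slc9a2, and Slc9a3 had 114.1, 96.2, 101.1 and 111.2 CPM with HCl and 111.1, 97.3, 92.7 and 99.6 CPM with DMSO. Among 14 measured genes of sulfoxide and sulfur handling, which include methionine sulfoxide reductases, the range was -0.22 to 0.24 with a median of -0.01. Msra, the best known of these reductases, had 88, 83.2, 79.1 and 80.5 CPM with HCl and 85, 80.8, 75.4 and 82.6 CPM with DMSO, a log2 fold change of 0.03. Fmo1 had the lowest value, -0.22, at 3.61 to 4.39 CPM with HCl and 3.47 to 5.3 CPM with DMSO. The 21 measured genes of xenobiotic metabolism ranged from -0.04 to 0.15 with a median of 0.04. The highest value in that list was that of the cytochrome P450 Cyp2c55, with 132.7, 150, 111 and 137 CPM with HCl and 109.2, 132.6, 102.4 and 134 CPM with DMSO. HCl was the higher sample in 4 of 4 pairs of Cyp2c55, and the unadjusted p in edgeR was 0.25 without and 0.0343 with the replicate block, where the adjusted p was 0.9999. The 9 heat shock genes measured ranged from -0.12 to 0.02, the 12 genes of the unfolded protein response from -0.06 to 0.11 and the 11 NRF2 targets from -0.05 to 0.08. The 15 glycolysis genes ranged from -0.03 to 0.06, the 11 hypoxia genes from 0.01 to 0.08 and the 14 genes of S phase and mitosis from -0.05 to 0.02. The 9 measured genes of the regenerative epithelium, with Clu at the low end, had a median of -0.11 and a range of -0.52 to 0.07. Over all lists, 1 gene had an unadjusted p under 0.05 in edgeR without the block and 6 had one with it. Of all 15247 genes tested, 194 (1.27%) had one without the block and 277 (1.82%) with it. The 6 genes, named as a description, were Hlf, Reg3b, Osr2, Cyp2c55, Clu and Krt20. All had an adjusted p of 0.9999 in edgeR's blocked test. Hlf, a clock-controlled transcription factor and the gene of both fits, was at 0.366 to 1.18 CPM with HCl and 0.116 to 0.37 CPM with DMSO.

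The replicate number separated the libraries far more than the vehicle did. Over the 9281 genes of at least 10 CPM, the vehicle took 4.7% of the summed squared deviations of log2 CPM with 1 degree of freedom, the replicate number 78.8% with 3 and the remainder 16.5% with 3. Per degree of freedom, the mean square was 0.00575 for the vehicle, 0.0321 for the number and 0.00674 for the remainder, so that the vehicle added no more than the unexplained spread. The root mean square log2 difference between 2 libraries had a median of 0.11 (range 0.0974 to 0.135) for the 4 pairs of the same number. It was 0.178 (0.117 to 0.305) for 12 pairs with the same vehicle and different numbers, and 0.186 (0.103 to 0.293) for 12 pairs that differed in both. Libraries of the same number differed more than 2-fold in 6 to 7 genes, and libraries of the same vehicle in 8 to 99 genes. The widest distance, 0.305, was that between DMSO m2 and DMSO m3. The numbers m1 and m4 were close to each other: HCl m1 was nearer to DMSO m4, at 0.103, than to DMSO m1, at 0.107.

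**Figure D2:**
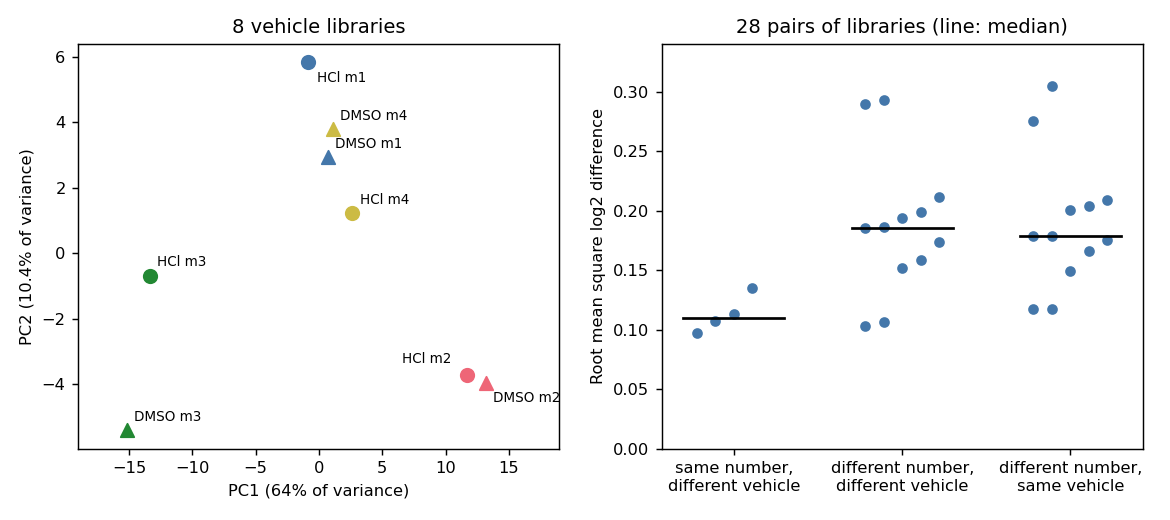
Left, the 8 vehicle libraries on the first 2 principal components of log2 CPM (64% and 10.4% of the variance; circles HCl, triangles DMSO, 1 colour per replicate number). Right, the root mean square log2 difference of each of the 28 pairs of libraries in 3 classes with the median as a line. The m2 libraries lie at one end of the first component and the m3 libraries at the other, and pairs of the same number lie at 0.0974 to 0.135.

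Same-numbered libraries also deviated together from the mean of their vehicle. Over 14546 genes, these deviations had a Pearson correlation of 0.173 for m1, 0.508 for m2, 0.539 for m3 and 0.152 for m4. Their mean, 0.343, was the highest of the 24 ways to pair the 4 HCl with the 4 DMSO libraries (one-sided exact permutation test, p = 0.0417, the smallest p that 24 pairings allow). Genes are not independent replicates, and over those of at least 50 CPM the mean was 0.428 and was not the highest (one-sided exact permutation test, p = 0.125).

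In edgeR's test for any difference between the 4 numbers, with the vehicle in the model, 2450 of 14546 genes (16.8%) passed an adjusted p of 0.05. These p-values measure the spread between the libraries, 2 per number, since nothing in the labels says that they came from separate cultures. Most of the differences were small: the median fold between the highest and the lowest number mean was 1.3 among the 2450 genes and 1.15 among all genes tested, and 344 genes differed over 2-fold and 75 over 4-fold. Protein-coding genes made up 2354 of the 2450 and 12436 of the 14546 genes tested, so that 18.9% of them passed, against 16.8% of all genes. The number m2 was highest in 1284 of the genes and m3 in 758, and m3 was lowest in 1411 and m2 in 701. Thus 1144 genes (46.7%) had m2 highest and m3 lowest, and 586 (23.9%) had m3 highest and m2 lowest, while m1 and m4 mostly lay between. Without m2 the count was 1495 and without m3 it was 1578, and with m1 and m4 alone it was 222.

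Among genes of at least 5 CPM on average, the 24 with the widest range included 3 of the proximal list, Pdx1, Slc40a1 and Cybrd1, and the widest was Akp3. Akp3, an intestinal alkaline phosphatase of the brush border (chromosome 1, 87124973 to 87127912, plus strand, GRCm38), had 72.9, 750.2, 4.52 and 177.4 CPM in HCl m1 to m4 and 125.3, 733.3, 3.74 and 177.1 CPM in DMSO m1 to m4. Its number means differed 177-fold (adjusted p = 0.00727), and with either vehicle m2 was the highest and m3 the lowest library. The neighbouring alkaline phosphatase Alpi had 789.5, 2088, 414.9 and 1134 CPM with HCl and 958.3, 2131, 385.8 and 1117 CPM with DMSO, with the same order of numbers and a fold of 5.27 (adjusted p = 1.19e-08). The HCl minus DMSO log2 fold changes were -0.05 for both. The 2 genes lie side by side on chromosome 1, and their promoters are shown because both genes followed the numbers in the same order. The 250 bases before each start site (RefSeq, GRCm38.p6, 5′ to 3′ on the strand of the gene) are chr1:87124704-87124953, plus strand, for Akp3 and chr1:87101607-87101856, minus strand, for Alpi. Capitals mark the 2 runs of at least 12 bases that both hold in the same order, of 14 and 13 bases.
Akp3: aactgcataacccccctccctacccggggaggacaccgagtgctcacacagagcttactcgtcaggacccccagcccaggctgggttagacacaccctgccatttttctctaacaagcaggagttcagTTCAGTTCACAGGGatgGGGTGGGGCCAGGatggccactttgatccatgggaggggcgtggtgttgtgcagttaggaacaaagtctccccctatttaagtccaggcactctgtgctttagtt
Alpi: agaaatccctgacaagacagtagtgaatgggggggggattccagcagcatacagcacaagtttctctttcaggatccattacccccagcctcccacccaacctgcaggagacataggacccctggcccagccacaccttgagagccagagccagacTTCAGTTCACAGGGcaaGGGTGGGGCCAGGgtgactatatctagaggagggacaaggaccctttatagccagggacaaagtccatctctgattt
The shared runs are a description of the letters. The genes are near copies, and reads that matched several places were not counted, so that part of the reads of either gene may be missing.

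Pdx1, the homeodomain factor of the duodenum and pancreas (chromosome 5, 147269959 to 147275848, plus strand), had 10.6, 35.9, 0.739 and 14.8 CPM in HCl m1 to m4 and 12, 36.3, 1.04 and 14.5 CPM in DMSO m1 to m4. The 2 libraries of a number were close, and the number means differed 37.7-fold with m2 highest and m3 lowest (adjusted p = 7.96e-20). Its promoter is shown because its range between the numbers was the second widest among genes of at least 5 CPM. The 250 bases before the RefSeq start site, which lies inside the Ensembl gene, are chr5:147269847-147270096, plus strand, and capitals mark CACGTG, which holds ACGTG on both strands.
Pdx1: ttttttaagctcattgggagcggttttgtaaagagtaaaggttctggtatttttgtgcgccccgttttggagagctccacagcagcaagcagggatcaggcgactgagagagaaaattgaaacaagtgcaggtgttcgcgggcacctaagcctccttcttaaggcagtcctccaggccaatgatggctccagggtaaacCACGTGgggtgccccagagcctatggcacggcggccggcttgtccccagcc
The letters ACGTG, the core of the hypoxia response element, were found on either strand in 16.6% of 27025 promoters of this length and in 2 of the 18 promoters at hand for the 24 genes of widest range, those of Pdx1 and Slc10a2. AGATAA, the GATA core, was found in 10.3% of all promoters and in 2 of the 18, and TAATTA, a homeodomain core, in 4.9% and in 4. Meis2, a homeodomain cofactor, had 5.28, 26, 0.565 and 6.58 CPM with HCl and 7.46, 23, 0.656 and 8.09 CPM with DMSO, a fold of 35.6 (adjusted p = 2e-16). Onecut2, another factor of the proximal list, had 181.9, 307.1, 94.6 and 219.5 CPM with HCl and 198, 305.9, 110.6 and 206.1 CPM with DMSO, and Gata4, which sets jejunal against ileal identity, differed 1.43-fold in the same order.

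The 3 main proteins of duodenal iron uptake moved with the numbers in that order too. Cybrd1, the ferric reductase of the brush border, had 230.3, 700.7, 106.9 and 305.2 CPM with HCl and 246.9, 646.1, 102.8 and 294.4 CPM with DMSO, a fold of 6.42 (adjusted p = 1.54e-23). Slc11a2, the iron importer DMT1, had 250.1, 852.6, 133.3 and 407.7 CPM with HCl and 309.4, 833.5, 139.4 and 387.5 CPM with DMSO, a fold of 6.18. Slc40a1, the exporter ferroportin, had 68.9, 271.6, 18.8 and 106.9 CPM with HCl and 83.4, 264.1, 20.7 and 105.9 CPM with DMSO, a fold of 13.5 (adjusted p = 1.08e-19). In all 3 genes both m2 libraries were above, and both m3 libraries below, those of m1 and m4. The 3 genes are among those picked for the widest range, so that a clear gap between the numbers follows from the choice. Of all 2450 genes past the test for the numbers, 1144 (46.7%) had m2 highest and m3 lowest. Exons of Slc11a2 overlap those of Gm5475. The proximal list was chosen with earlier results of these data known, and it holds Pdx1, Slc40a1 and Cybrd1, which were also picked for their range. Its share of calls is therefore given as a description. Of its 9 measured genes, all 9 passed the test for the numbers, against 16.8% of all genes. In 6 of them, Pdx1, Onecut2, Gata4, Cybrd1, Slc40a1 and Adh1, m2 was highest and m3 lowest. Lct, the lactase of the jejunum, went the other way, with 374.2, 186.6, 436.7 and 349.8 CPM with HCl and 349.3, 188.4, 393.4 and 333.3 CPM with DMSO, and Fabp1 and Cyp3a11 were highest in m1.

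**Figure D3:**
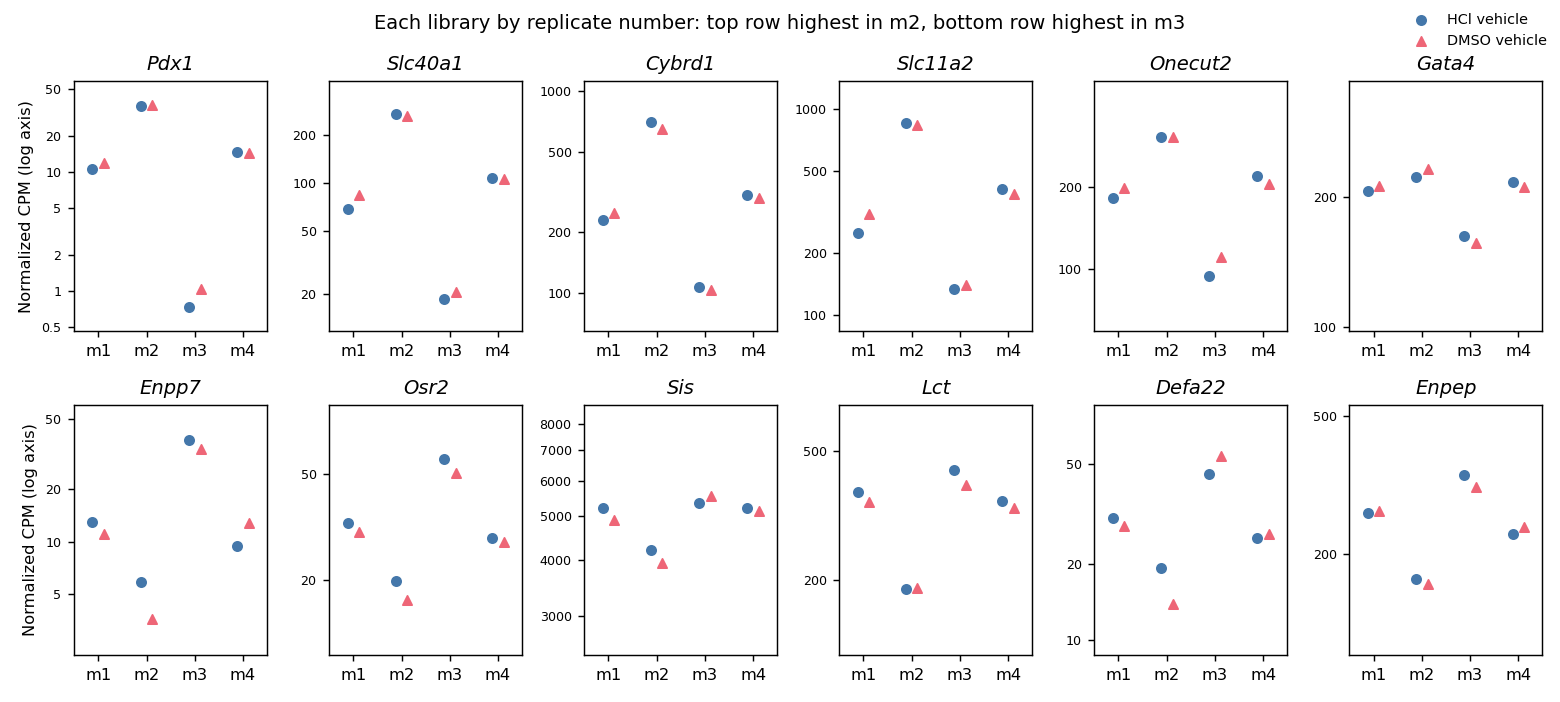
Normalized CPM (y axes, log scale) of 12 genes in the 8 vehicle libraries by replicate number (circles HCl, triangles DMSO). The upper 6 genes were picked as highest in m2 and lowest in m3, and the lower 6 as highest in m3 and lowest in m2. Listed genes with other orders, such as Fabp1 and Slc10a2, are not shown. The HCl and DMSO points of a number lie close to each other.

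Genes of the distal small intestine were split. Slc10a2, the ileal bile acid importer, had 1.87, 8.09, 7.17 and 3.66 CPM in HCl m1 to m4 and 2.09, 6.16, 11 and 2.59 CPM in DMSO m1 to m4. It was high in m3 and m2 and low in m1 and m4, with a fold of 4.36 (adjusted p = 6.16e-06), and the order of m2 and m3 differed between the vehicles. The 250 bases before its RefSeq start site, chr8:5105288-5105537, minus strand, are shown with the 2 matches of ACGTG and the 2 of TAATTA in capitals.
Slc10a2: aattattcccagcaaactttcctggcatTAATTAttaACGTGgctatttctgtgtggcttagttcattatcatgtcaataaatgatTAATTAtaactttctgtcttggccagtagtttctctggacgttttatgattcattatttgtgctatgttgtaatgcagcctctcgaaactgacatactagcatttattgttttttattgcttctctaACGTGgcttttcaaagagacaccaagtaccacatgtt
Osr2, a zinc finger factor, had 32.7, 19.9, 56.7 and 28.7 CPM with HCl and 30.4, 16.8, 50.4 and 27.9 CPM with DMSO. It was highest in m3 and lowest in m2 with either vehicle, by 2.92-fold (edgeR, adjusted p = 7.84e-15). Fgf15, the hormone that ileal cells release on bile acid uptake, was also highest in m3, at 3.13 and 3.78 CPM against 1.22 to 2.1 CPM in the other libraries. Hoxb8, a factor of the posterior body, had 2.38 and 1.74 CPM in the m2 libraries and 1.52 and 1.73 CPM in the m3 libraries, whereas it was at 0 to 0.309 CPM in m1 and m4. Fabp6, the ileal bile acid carrier, differed between the vehicle samples of one number, with 0.0426 and 2.51 CPM in the 2 m1 libraries, and did not pass (adjusted p = 0.41). In all, 6 of the 9 measured distal genes passed, 4 with m3 and 2 with m2 highest.

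The other genes of widest range that were highest in m2 and lowest in m3 included Reg1, Car2, 2210407C18Rik, Anxa10, Otop3, Capg, Enpp3, Gm2061, Sult1c2 and Trim46. Reg1, a secreted lectin, had 852.9, 1914, 131.3 and 1198 CPM with HCl and 955.4, 1980, 160.8 and 1171 CPM with DMSO, a fold of 13.4. Car2, the cytosolic carbonic anhydrase, had 6.26, 21.6, 1.87 and 6.75 CPM with HCl and 7.81, 22.5, 1.74 and 6.12 CPM with DMSO, a fold of 11.8. Otop3, a proton channel, had 26.5, 59.5, 9.39 and 31.2 CPM with HCl and 29.5, 62.4, 8.21 and 30.1 CPM with DMSO. The HCl minus DMSO log2 fold changes of Car2 and Otop3 were -0.07 (SE 0.817) and -0.04 (SE 0.663), and with the replicate block they were -0.06 (SE 0.124) and -0.02 (SE 0.0899). Exons of Gm2061 and Trim46 overlap those of Slc30a10 and Krtcap2.

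A few genes had 1 number set apart in another way. Enpp7, the alkaline sphingomyelinase of the brush border, was the widest gene of at least 5 CPM with m3 highest, at 13, 5.85, 37.8 and 9.43 CPM with HCl and 11, 3.61, 33.6 and 12.7 CPM with DMSO (7.64-fold). Tmigd1, an enterocyte adhesion protein, had 16.2 and 19.1 CPM in the m3 libraries and 4.14 to 5.21 CPM in the other 6. Gm42031, a predicted gene, had 3.98 and 2.03 CPM in the m2 libraries and 17.5 to 20.6 CPM in the others. Cdk5rap1, which modifies transfer RNA, had 4.47 and 5.53 CPM in the m1 libraries and 14.1 to 21.2 CPM in the others. Msln, described above for its difference between vehicles, was lowest in m4 with 2.8 and 3.08 CPM.

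The lists of the cell lineages differed in which number was highest. All 17 measured genes of the alpha-defensins and other Paneth cell products passed the test for the numbers, and m2 was the lowest number in 15 of them. Defa22 had 30.5, 19.2, 45.7 and 25.5 CPM with HCl and 28.5, 13.9, 53.8 and 26.3 CPM with DMSO, a fold of 3.02 with m3 highest. Defa24 had 1402, 950.5, 1308 and 1091 CPM with HCl and 1273, 932.9, 1311 and 1182 CPM with DMSO, a fold of 1.42 with m1 highest. The defensins are near copies of each other, so that the counts of single members are uncertain. All 14 brush border enzymes passed, with m3 highest in 7 and m2 in 2: Enpep, a peptidase, had 262, 168.5, 337.8 and 228.3 CPM with HCl and 266.6, 163, 312.6 and 238.8 CPM with DMSO, whereas Alpi was highest in m2. Sucrase-isomaltase, Sis, differed 1.34-fold, with m2 lowest. All 6 stem cell markers passed, Olfm4, Axin2, Ascl2 and Slc12a2 with m3 and Lgr5 and Gkn3 with m2 highest, and their folds were 1.13 to 1.6. Goblet cell genes differed as well: Clca1 had 208.2, 419.8, 168.5 and 206.3 CPM with HCl and 221.1, 392.7, 148.4 and 212.5 CPM with DMSO, a fold of 2.57. Of the enteroendocrine markers 3 of 5 passed, Chga, Chgb and Tph1, all with m2 highest, and of 2 tuft cell genes tested 0 passed.

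The counts of metabolic genes below stand against 1284 of 2450 calls with m2 highest among all genes. Of 15 glycolysis genes 13 passed, 12 of them with m2 highest, and Aldoa had 1637, 1794, 1371 and 1710 CPM with HCl and 1563, 1872, 1254 and 1626 CPM with DMSO, a fold of 1.4. Of 11 hypoxia response genes 9 passed, 8 with m2 highest, among them Egln3, a prolyl hydroxylase of the oxygen sensor, with 319.1, 412.5, 276.2 and 354 CPM with HCl and 295.9, 407, 277 and 339 CPM with DMSO. Of 18 cholesterol synthesis genes 12 passed, all 12 with m2 highest, and Insig1 had the widest range among them, 1.64-fold. Of 14 genes of fatty acid oxidation and ketogenesis 11 passed, 8 of them with m2 highest. Of 20 xenobiotic genes tested 19 passed, 10 with m2 highest, led by the glutathione transferase Gsta4 with 187.4, 266, 120.8 and 184.7 CPM with HCl and 188.1, 281.1, 114.3 and 186.6 CPM with DMSO. Of 14 interferon response genes 7 passed, all with m2 highest, and Irf1 reached 65.4 CPM. Of the unfolded protein response 6 of 12 genes passed, of the immediate early genes 7 of 12 and of antigen presentation 4 of 7, each time with m2 highest in all that passed. Of the 14 genes of sulfoxide and sulfur handling 5 passed, 0 with m2 and 3 with m3 highest. Of 13 Wnt targets 8 passed, 7 of them with m3 highest, and of 10 genes of Notch and secretory fate 3 passed, all with m3 highest.

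**Figure D4:**
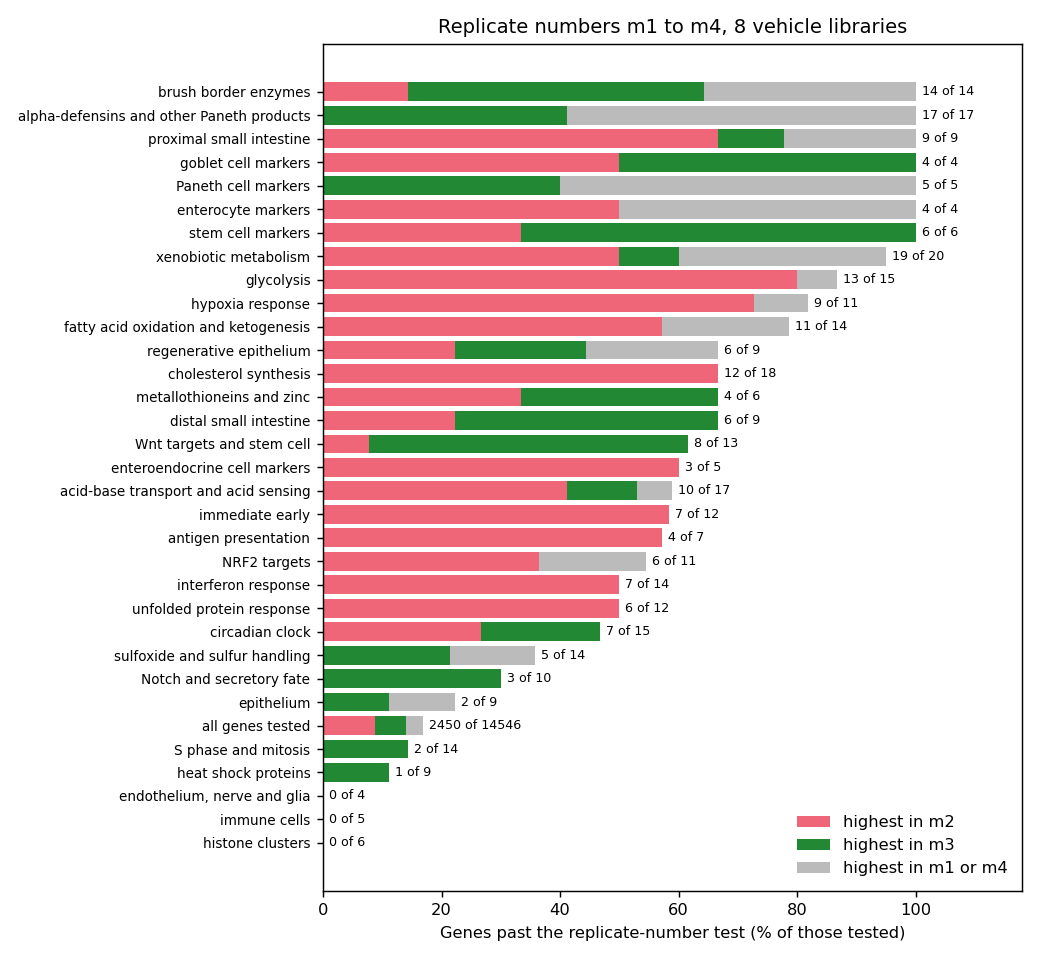
Share of the tested genes of each list that passed the test for the replicate numbers in the 8 vehicle libraries (x axis, percent), coloured by the number with the highest mean, with the count beside each bar. All genes together stand at 16.8%, 4 lists of at least 6 genes reach 100%, and the lists of histones, immune cells and endothelium, nerve and glia stand at 0. The lists were chosen with earlier results of these data known.

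Other lists varied little. Only 2 of 14 genes of S phase and mitosis passed, Top2a and Mcm2, with folds of 1.12 and 1.15, and 1 of 9 heat shock genes, Hsp90aa1. The genes of immune cells (0 of 5 tested), fibroblasts and smooth muscle (0 of 2), and endothelium, nerve and glia (0 of 4) gave no call, nor did the 6 histone genes or Adra2a, which differed 1.17-fold (adjusted p = 0.104). Among genes of at least 50 CPM, the 12 with the smallest range over the 8 libraries were Shtn1, Prkar2a, Eif4ebp2, Rrp1, Trappc11, Nbr1, Anapc7, Ctdsp2, Mcl1, Vps36, Eif4g2 and Abcf2. Shtn1, which encodes the axon guidance protein shootin 1, had 145.1, 147.1, 144.1 and 146.3 CPM with HCl and 143.8, 145.9, 144.4 and 146.3 CPM with DMSO, and over the 12 genes the highest library exceeded the lowest by at most 1.04-fold. The initiation factor gene Eif4g2 was at 1366 to 1416 CPM and Eif4ebp2, a repressor of cap-dependent initiation, at 478.1 to 492.4 CPM.

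The 8 agonist libraries with the numbers m1 to m4 share no sample with the vehicle libraries, and the differences between the numbers were measured again in them. With the agonist in the model, 143 of 14552 genes (0.983%) passed and 1113 had an unadjusted p under 0.05. Of the 143 genes, 139 were also past the threshold in the vehicle libraries, which is 97.2% of the agonist calls and 5.67% of the vehicle calls. The count of agonist calls turned on single numbers: it was 15 without m2, 14 without m3 and 3103 without m4, and of these 3103 genes 1840 were vehicle calls. It was 820 after correction of each library for its GC trend, and the slopes on GC content ranged from -0.3 to 0.139 in these 8 libraries, with UK14304 m4 lowest and norepinephrine m4 highest, against -0.104 to 0.063 in the vehicle libraries. The part of this in the lower count was not tested beyond that correction. Of the 2443 vehicle calls in both tables, 1908 (78.1%) had the same number highest in the agonist libraries, against 50.3% of all 14312 genes, and 1524 (62.4%) had the same number highest and the same lowest, against 27.7%.

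Of the 24 genes of widest range, 23 also passed in the agonist libraries, and Msln did not (adjusted p = 0.11). Pdx1 had 12.9, 32.3, 1.22 and 15.6 CPM in norepinephrine m1 to m4 and 11, 31.8, 1.07 and 13.1 CPM in UK14304 m1 to m4 (adjusted p = 0.000115). Akp3 had 89.7, 443.1, 4.52 and 214.8 CPM with norepinephrine and 76.2, 431.1, 2.48 and 90.8 CPM with UK14304 (adjusted p = 0.000841). Both genes kept the order of the vehicle libraries. Slc40a1 had 77.3, 223.6, 16.1 and 94.1 CPM with norepinephrine and 57.7, 206.3, 14 and 81.3 CPM with UK14304, and its adjusted p of 6.96e-05 was the smallest in the agonist test. Enpp7 had 13.4, 6.75, 22.9 and 11 CPM with norepinephrine and 11.2, 5.24, 32.2 and 7.06 CPM with UK14304, so that m3 was again highest and m2 lowest. Osr2, Slc10a2 and Lct passed in the agonist libraries too, with adjusted p of 0.00161, 0.0324 and 0.00561, whereas Gata4, Onecut2 and Fgf15 did not, with adjusted p of 0.857, 0.0566 and 0.881. In all, 4 of 9 proximal genes, 4 of 9 distal genes and 0 of 6 stem cell markers passed there, against 0.983% of all genes. These shares are a description, since the gene lists were chosen with earlier results of these data known. Of the glycolysis, hypoxia and cholesterol genes, 0 of 15, 0 of 11 and 0 of 18 passed in the agonist libraries. A p that misses the threshold in these libraries does not show that the numbers were alike.

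**Figure D5:**
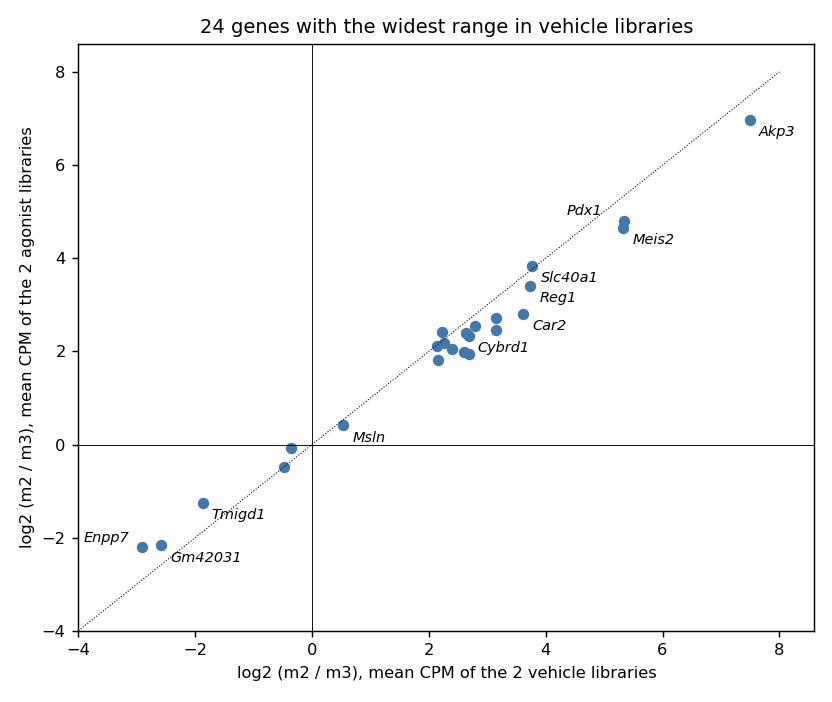
Log2 ratio of the m2 to the m3 mean CPM in the 2 agonist libraries of each number (y axis) against the same ratio in the 2 vehicle libraries (x axis) for the 24 genes of widest range, with a dotted line of equal values. The genes lie close to the line, from Akp3 at the upper right to Enpp7 and Gm42031 at the lower left, and the 2 sets share no sample.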

How the data were processed

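RNA was isolated from 18 mouse organoid samples, and single reads of 50 bases from poly(A)-selected libraries were mapped by the authors with STAR 2.7.3 to GRCm38 and counted per gene with featureCounts of the Subread package (version 1.6.4 in the methods; the file header names a later release and a later Ensembl annotation). The deposited counts are not normalized, use no strand, and leave out reads that matched several places or several genes. All 18 per-sample columns were matched to samples by name. Symbols were found for 55141 of 55487 genes.

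Genes were tested with a robust quasi-likelihood fit after TMM scaling and filterByExpr (edgeR 4.0.16, R 4.3.3). The vehicle contrast came from one model of all 18 samples in 4 groups, signed as HCl minus DMSO. Its fold changes and SE are those without the replicate block unless the block is named, so that these SE hold the differences between the numbers too. The replicate numbers were tested in the 8 vehicle libraries with the vehicle as covariate, and in the 8 agonist libraries of m1 to m4 with the agonist as covariate. Log2 CPM used a prior count of 2. A Benjamini-Hochberg adjusted p under 0.05 is said to pass. Total counts of 22153675 to 26268471 per vehicle library limit the precision for genes of few counts. Single values per library were compared with exact permutation tests.

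The pairing comes from the number in the sample titles. The correlation of the deviations from the group means was over 0.1 for all 4 same-number pairs, so the numbers were taken to pair the samples, and the replicate block changed no call.

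The members and gene lists were chosen with earlier results of these data known. Genes were named by rule: any gene past the vehicle test (there was none); the 10 genes in each direction with the lowest blocked p among those of at least 1 CPM with the same direction in 4 pairs; the 24 genes past the number test with the widest range among those of at least 5 CPM; the 12 of at least 50 CPM with the smallest range; listed genes; and the genes the study names. The genes over 0.5 in absolute log2 fold change, and those under 5 CPM in the closing section, were added after their values were seen. Promoters were taken from RefSeq. The scripts were tested on simulated data. Alternatives were DESeq2 1.42.0, its size factors, other filters on low counts, removal of the GC trend (lowess, span 0.3), the ribosomal RNA share as a covariate, the vehicle samples alone and leaving out each library or number. For the vehicle contrast, the fits that left out a single library had no replicate block and kept its partner of the same number. The fits on the ribosomal RNA share, with m1 and m4 alone, and all alternatives of the agonist test were chosen after seeing the data. Of the 38 lists, the 13 protein-coding mitochondrial genes were all at 0. Some genes that the rule names are not reported here.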

Additional observations from a re-analysis of the deposited data

Results flagged for a closer look

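Groups of 4 libraries were searched for a highest or lowest library that stood apart from the other 3 by more than Dixon's 95% critical share of the range of the group. Of 138 groups, 8 (5.8%) held such a library. The rate of about 1 in 20 that chance gives holds for groups not picked by their values. Many groups here belong to genes picked for their range, so the share cannot be set against that rate. Gm42031, Tmigd1 and Anxa10 are among the genes of widest range. Gm42031 was set apart in m2 with both vehicles, at 3.98 CPM with HCl (17.5 to 19 CPM in the other 3) and at 2.03 CPM with DMSO (17.9 to 20.6 CPM). Tmigd1 was set apart in m3 with both vehicles, at 16.2 CPM with HCl (4.34 to 5.21 CPM) and at 19.1 CPM with DMSO (4.14 to 4.77 CPM). Anxa10, an annexin known from the stomach, had 59.6 CPM in HCl m2 and 6.78 to 14.9 CPM in the other HCl libraries. Adra2a had 26.8 CPM in HCl m2 and 29.8 to 30.2 CPM in the others, a gap that is wide only against their narrow range. The ribosomal RNA share was 2.02% in HCl m4 against 0.346% to 0.414% in the other HCl libraries. The slope of expression on gene length was -0.00994 log2 units per doubling of length in HCl m1 and 0.00534 to 0.00707 in the others.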

How the results depend on the processing

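HCl against DMSO gave 0 genes under each of the 23 alternatives, with a smallest adjusted p of 0.615 in the vehicle samples alone with the replicate block, and the replicate block changed no call (0 genes, 277 at an unadjusted p under 0.05). Over 1216 alternative log2 fold changes of 64 named genes, 1210 kept their direction or moved by less than 1 SD and 6 of the genes of smallest range moved by more, all with the ribosomal RNA share as a covariate. The 2450 genes of the number test became 1434 with DESeq2's likelihood ratio test, of which 1426 were among the 2450, 1495 to 2485 when each number was left out (1495 without m2, 1578 without m3), and 222 with only m1 and m4. The other settings gave 1999 to 3076 genes. Of 312 alternative adjusted p of the 24 widest genes, 21 were over 0.05, 12 of them with m1 and m4 alone. Akp3 lost its call without m2 (adjusted p = 0.0832) and without m3 (0.107), and Anxa10 (0.102), Slc11a2 (0.0819) and Tmigd1 (0.804) lost theirs without m3. The 143 genes of the agonist test became 820 with the GC trend removed and 14 to 3103 when each number was left out (15 without m2, 14 without m3, 3103 without m4). The mean correlation of same-number samples was 0.428 over genes of at least 50 CPM (p = 0.125). Leaving out single libraries, the difference in total counts was -2.75 to -1.77 M counts, in ribosomal RNA share -1.9 to -0.998 percentage points, in GC slope -0.0292 (without DMSO m3, the opposite sign) to 0.0266, in length slope 0.00162 to 0.0101 and in genes detected -615 to -356. The cause was not tested in any of these cases. With 2 libraries per number, small differences between numbers and genes of few counts are measured least well.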

Other observations

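Of the genes that passed the number test, 16 were under 5 CPM on average, reached over 2 CPM in a vehicle library and had number means over 8-fold apart. They were looked up after the values had been seen, and of the list of gastric and pancreatic genes 0 of 2 tested passed. Nkx6-3, a homeodomain factor of the distal stomach and duodenum, had 0.596, 16.7, 0.0869 and 2.28 CPM in HCl m1 to m4 and 1.51, 16, 0.0386 and 2.59 CPM in DMSO m1 to m4. In the agonist libraries the m2 libraries were again highest, at 12.2 CPM with norepinephrine and 15.1 CPM with UK14304. Ctse, the aspartic protease cathepsin E of the stomach, had 1.19, 8.23, 0 and 0.61 CPM with HCl and 2.36, 9.2, 0.116 and 0.288 CPM with DMSO. Tmprss15, the duodenal enteropeptidase that activates trypsin, had 2.6 and 4.26 CPM in the m2 libraries and was at 0 in both m3 libraries. Plut, a noncoding RNA of the Pdx1 locus, had 2.21, 7.72, 0.174 and 3.9 CPM with HCl and 2.75, 7.62, 0.0386 and 3.82 CPM with DMSO, in the same order of numbers as Pdx1.

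Slc15a2, a proton-coupled peptide transporter, was missing from 1 number only. It had 0.0851 CPM in HCl m1 and 0 in DMSO m1, against 3.34, 7.96 and 8.41 CPM in HCl m2 to m4 and 3.12, 8.56 and 7.52 CPM in DMSO m2 to m4. In the agonist libraries m1 was again lowest, at 0.0822 and 0 CPM, and the difference passed there too (adjusted p = 0.00161). Hoxb9, next to Hoxb8 on chromosome 11, shared the pattern of its neighbour, with 4.71 and 2.84 CPM in the m2 libraries, 2.17 and 3.7 CPM in the m3 libraries and 0 to 0.503 CPM in m1 and m4. Cubn, the receptor for intrinsic factor and vitamin B12 of the ileum, had 11.4 and 11.1 CPM in the m3 libraries against 1.06 to 4.78 CPM in the others, but norepinephrine m3 had 2.97 CPM and UK14304 m3 had 14.4 CPM, and it did not pass in the agonist libraries (adjusted p = 0.306).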
